A study of Mus musculus with 7 samples.

Results

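The 6 groups of microRNAs (miRNAs) known from epithelial tissues, miR-205, miR-203, miR-31, miR-192, miR-194 and miR-215, were followed in small RNA libraries from the brain ventricles of mice with and without TAp73. They were chosen by name as 8 mature arms among the 1914 mature mouse miRNAs counted, of which 1284 had a read in at least 1 library. The 8 arms are mmu-miR-205-5p, mmu-miR-203-3p, mmu-miR-31-5p, mmu-miR-31-3p, mmu-miR-192-5p, mmu-miR-192-3p, mmu-miR-194-5p and mmu-miR-215-5p, and each of them had reads; the prefix for mouse is left off below. Adult C57BL/6J mice gave the tissue, lateral ventricles with choroid plexus, and 4 of the libraries are from TAp73 knockouts (KO) and 3 from wild types (WT). TAp73 is the form of the p53 relative p73 that carries a transactivation domain, and the labels do not describe the knockout allele further. Small RNA libraries do not measure Trp73 mRNA, so the KO labels were not checked against it. Whether every library is a different animal is not stated in the labels, and p-values therefore reflect only how much these libraries vary.

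A mature miRNA is cut from one arm of an RNA hairpin and pairs with target mRNAs mainly through its seed, bases 2 to 8 from the 5′ end. miR-205, miR-203 and miR-31 are best known from stratified epithelia: miR-205 is abundant in basal and progenitor cells, miR-203 limits p63, another p53 relative, as mouse skin cells differentiate, and miR-31 is active in hair growth and wound repair. miR-192, miR-194 and miR-215 are abundant in intestine, liver and kidney, and in human cancer cells p53 induces them. The choroid plexus is the epithelium that makes cerebrospinal fluid, and ependymal cells with motile cilia line the ventricle wall.

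The mature sequences show which arms can act on the same targets and how close in sequence 2 of the arms are. They are from RefSeq (build GRCm38.p6), 5′ to 3′, with the seed in capitals.
miR-192-5p: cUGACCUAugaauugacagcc
miR-215-5p: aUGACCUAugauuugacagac
miR-194-5p: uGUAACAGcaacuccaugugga
miR-31-5p: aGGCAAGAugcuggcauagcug
miR-31-3p: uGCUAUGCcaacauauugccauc
miR-203-3p: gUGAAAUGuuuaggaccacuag
miR-205-5p: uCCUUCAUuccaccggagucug
miR-192-3p: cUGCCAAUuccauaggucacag
miR-192-5p and miR-215-5p have the same seed, UGACCUA, and no other mature mouse miRNA in the RefSeq table has it. They differ at 3 of 21 bases, C1A, A12U and C20A, with the miR-192-5p base given first and positions counted from 1 at the 5′ end. Each of the other 6 arms has a seed that no other mature mouse miRNA in that table has.

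The genes lie at 5 sites (GRCm38, the build called mm10 in the submitters' notes, with GENCODE release M21 annotation). Mir192 (chromosome 19, 6264844 to 6264932, plus strand) follows Mir194-2 (6264643 to 6264728) after 115 bases, and neither lies in another annotated gene. Mir215 (chromosome 1, 185313581 to 185313692, plus strand) follows Mir194-1 (185313319 to 185313385) after 195 bases. Both lie in an intron of Iars2, which encodes the mitochondrial isoleucyl-tRNA synthetase on the other strand, and within the noncoding gene 2010103J01Rik on their own strand. Mir205 (chromosome 1, 193507463 to 193507530, minus strand) lies in an exon of the noncoding gene 4631405K08Rik, also called Mir205hg. Mir31 (chromosome 4, 88910557 to 88910662, minus strand) lies in an exon of the noncoding gene AL805899.1, and Mir203 (chromosome 12, 112130880 to 112130955, plus strand) lies between genes, 3321 bases from Aspg.

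Assigned reads ran from 969106 in KO replicate 3 to 9343921 in KO replicate 1, and from 2238917 to 3692879 in the WT libraries. Mouse miRNAs took 98.55% to 98.98% of them. Levels below are reads per 1000000 mouse miRNA reads (CPM). An arm with 0 reads could still be present at up to 3 reads, which is 3.14 CPM in KO replicate 3 but 0.325 CPM in KO replicate 1. KO replicate 3 and WT replicate 2 were also the libraries lowest in miR-204-5p, an abundant choroid plexus miRNA, at 2006 and 2009 CPM, against 4993 to 11775 CPM in the other 5.

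miR-192-5p was the most abundant of the arms in every library, by an order of magnitude. It stood at 2209, 2108, 2126 and 2307 CPM in KO replicates 1 to 4, against 2396, 2178 and 2364 CPM in WT replicates 1 to 3. The groups overlapped, at 2187 ± 91.3 CPM in KO (SD, n = 4) and 2313 ± 118.1 CPM in WT (SD, n = 3). It ranked 48th of the 1914 mouse miRNAs by mean level and took 87.59% to 90.71% of the reads of the 8 arms. The summed level of 17 arms of the other epithelial miRNAs examined (the miR-200 family, the miR-183 cluster and miR-375) ran from 505.1 to 693.4 CPM in KO and from 525.0 to 1279 CPM in WT, below miR-192-5p alone in every library. Liver, intestine and kidney are the tissues in which miR-192 is best known. The liver's defining miRNA, miR-122-5p, was at 0 to 1.03 CPM in KO and 0.371 to 1.10 CPM in WT. No list of intestine or kidney miRNAs was examined, and the source of miR-192-5p was not tested.

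miR-31-5p came next, at 144.7, 143.4, 100.5 and 122.4 CPM in the KO libraries and 129.4, 128.9 and 105.8 CPM in the WT libraries. miR-194-5p stood at 75.9, 80.3, 90.1 and 87.6 CPM in KO and 88.6, 80.0 and 72.1 CPM in WT. In miR-203-3p the KO libraries had 51.1, 59.8, 52.4 and 67.0 CPM and the WT libraries 54.9, 63.3 and 46.6 CPM. The KO and WT ranges overlapped in each of these 3 arms.

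The remaining arms were rare. miR-215-5p, the seed partner of miR-192-5p, stood at 8.56, 9.87, 8.38 and 7.22 CPM in KO and 11.1, 14.9 and 9.60 CPM in WT. Only KO replicate 2 reached into the WT range, whose highest value belonged to WT replicate 2. miR-205-5p had 31, 13, 4 and 10 reads in KO, or 3.36, 1.69, 4.19 and 2.58 CPM, and 15, 12 and 18 reads in WT, or 5.56, 5.43 and 4.94 CPM. These groups did not overlap, but most of their exact 95% binomial intervals, which cover counting error only, did. Those of KO replicates 1, 3 and 4 overlapped every WT interval, with 1.14 to 10.7 CPM in KO replicate 3 against 2.92 to 7.80 CPM in WT replicate 3. That of KO replicate 2, 0.899 to 2.89 CPM, overlapped WT replicate 2 (from 2.80 CPM) but lay below WT replicates 1 (from 3.11 CPM) and 3. miR-31-3p, with 74 reads in all, ranged from 0.975 to 4.19 CPM in KO and from 0.904 to 5.19 CPM in WT. miR-192-3p, with 13 reads in all, ranged from 0.258 to 1.05 CPM in KO and from 0 to 1.48 CPM in WT, where the 0 was in WT replicate 3 and allows up to 0.823 CPM.

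**Figure D1:**
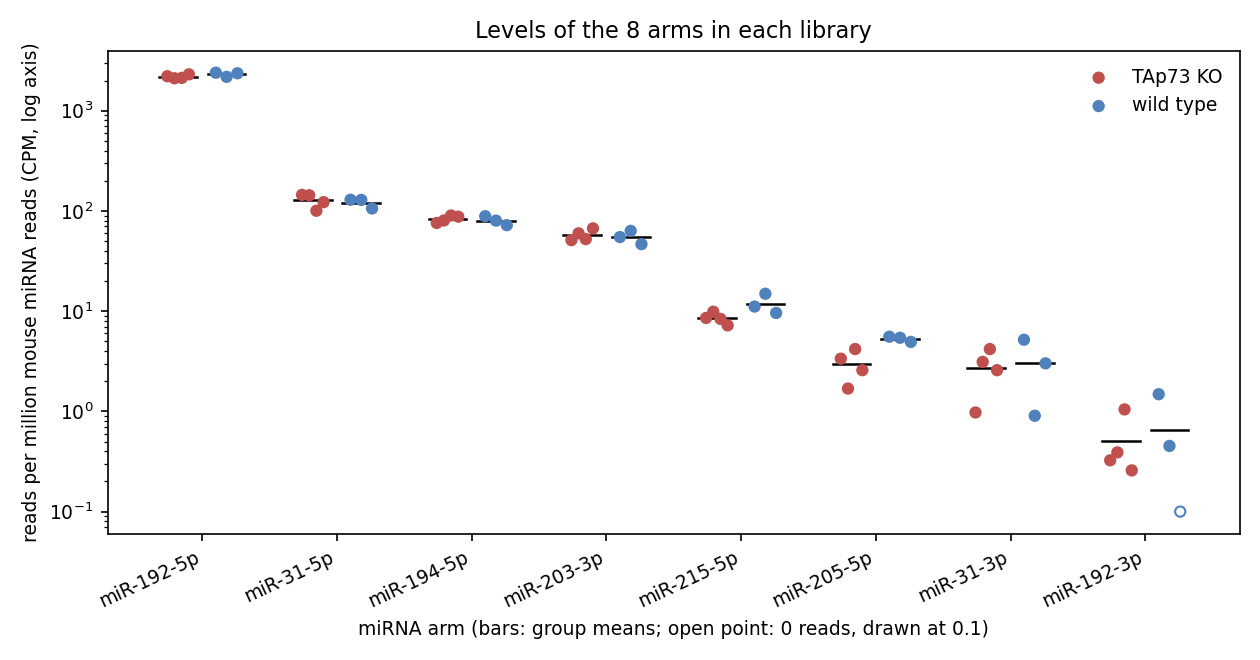
Level of each of the 8 arms in CPM (log axis) in the 4 KO (left of each pair) and 3 WT libraries (right), with bars at the group means; an open point marks 0 reads. miR-192-5p sits between 2108 and 2396 CPM in all 7 libraries, and miR-205-5p is the arm whose KO points, up to 4.19 CPM, all lie below its WT points, from 4.94 CPM.

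The order of the levels was nearly the same in all libraries. Over the 7 libraries miR-192-5p lay 18.0-fold above miR-31-5p (log2 ratio 4.17 ± 0.23, mean ± SD). miR-31-5p lay 1.51-fold above miR-194-5p (0.60 ± 0.25), and miR-194-5p 1.46-fold above miR-203-3p (0.54 ± 0.17). miR-203-3p lay 5.68-fold above miR-215-5p (2.51 ± 0.36), and miR-215-5p 2.57-fold above miR-205-5p (1.36 ± 0.55). Each of these 5 steps held in 7 of 7 libraries, as did that from miR-31-3p down to miR-192-3p (2.23 ± 1.26). miR-205-5p and miR-31-3p did not differ beyond their spread (0.57 ± 1.11), with miR-205-5p higher in 4 of 7. Their reads were equal in KO replicates 3 and 4, and miR-31-3p was higher in KO replicate 2. The arms are of like length, 21 to 23 bases, but ligation in small RNA kits favours some sequences over others, so ratios between different arms are ratios of reads and may not be ratios of molecules.

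The KO and WT libraries were compared to ask whether the levels of these miRNAs differ without TAp73, and none of the tested arms passed. The test was edgeR's quasi-likelihood test over all 534 mouse miRNAs that passed a filter on low counts, with Benjamini-Hochberg adjustment. Of the 8 arms, 7 passed the filter and miR-192-3p did not. In this comparison 6 of the 534 miRNAs were called, or 1.12%, and none of the 7 tested arms was among them. Their median log2 fold change was 0.00, against -0.02 over all miRNAs tested, with 3 arms positive and 4 negative.

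miR-205-5p had the fold change farthest from 0, at -0.88 ± 0.37 on the log2 scale (KO minus WT, ± SE), with a 95% interval of -1.69 to -0.08 and an edgeR adjusted p of 0.38. It averaged 2.95 ± 1.07 CPM in KO (SD, n = 4) and 5.31 ± 0.329 CPM in WT (SD, n = 3), and was lower in 4 of 4 KO libraries than in each WT library. It was the 1 arm of 8 whose groups did not overlap. Among all 534 miRNAs tested, 8.24% had every KO library below every WT library and 11.8% did not overlap in either direction. In a bulk sample, fewer cells of a type and less RNA per cell cannot be told apart.

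Marker miRNAs of other cell types were summed beside miR-205-5p, and none of those described in this paragraph was called by edgeR. The 3 skeletal muscle miRNAs examined, of which 1 was tested, summed to 3.09 to 5.85 CPM in KO and 6.86 to 9.27 CPM in WT, without overlap. Among them miR-133a-3p, the most abundant, had 4.12, 4.81, 2.09 and 2.58 CPM in KO and 7.78, 8.14 and 6.03 CPM in WT, while miR-1a-3p was at 0 to 0.260 CPM in KO and 0.371 to 0.823 CPM in WT, and miR-206-3p at 0.515 to 1.41 CPM in KO and 0 to 1.11 CPM in WT. For miR-133a-3p the log2 fold change was -0.85 ± 0.33 (edgeR adjusted p = 0.38). The 3 neuronal miRNAs, 2 of 3 positive, also did not overlap when summed, with the KO libraries higher by a narrow margin. They summed to 25611 to 28734 CPM in KO and 14580 to 25347 CPM in WT. The most abundant, miR-128-3p, had 17802 to 19444 CPM in KO and 8795 to 16667 CPM in WT. It came first by p in edgeR, with a log2 fold change of 0.70 ± 0.20 (± SE, adjusted p = 0.15), and miR-129-2-3p followed at -0.46 ± 0.17. The groups of miR-129-2-3p did not overlap in the other direction, at 218.4 to 341.2 CPM in KO and 387.7 to 481.2 CPM in WT. In miR-124-3p the groups overlapped, at 5948 to 10028 CPM in KO and 5303 to 8763 CPM in WT. Its log2 fold change was 0.16 ± 0.21 (edgeR adjusted p = 0.76). The groups overlapped in the next 5 lists, whose 2 arms with the smallest p are given by their log2 fold change ± SE. The 5 pituitary arms, those of miR-7 and miR-375-3p, were 5 of 5 negative with a median of -0.68. They summed to 357.0 to 630.4 CPM in KO and 451.7 to 1402 CPM in WT, with miR-7a-5p at -0.92 ± 0.32 (edgeR adjusted p = 0.31) and miR-7b-5p at -0.70 ± 0.32. In WT replicate 3 miR-7a-5p was at 368 CPM and miR-375-3p at 866.2 CPM. WT replicates 1 and 2 had 122.3 and 160.5 CPM of miR-7a-5p and 284.3 and 188.1 CPM of miR-375-3p. The 5 leukocyte arms, 5 of 5 positive with a median of 0.35, summed to 590.4 to 790.5 CPM in KO and 534.5 to 599.4 CPM in WT, and the smallest p belonged to miR-223-3p (0.82 ± 0.40), followed by miR-150-5p (0.35 ± 0.18). The 3 erythroid arms, 3 of 3 positive with a median of 0.54, summed to 138.2 to 261.8 CPM in KO and 139.3 to 195.0 CPM in WT, and the smallest p belonged to miR-144-3p (0.54 ± 0.24) and its other arm, miR-144-5p (0.55 ± 0.27). The 2 oligodendrocyte arms (356.0 to 517.4 CPM in KO, 387.0 to 680.3 CPM in WT) were miR-338-3p at -0.19 ± 0.26 and miR-219a-2-3p at -0.09 ± 0.19. Of the 6 mesenchymal and vessel rows (16348 to 21287 CPM in KO, 16832 to 25413 CPM in WT) 5 were tested, 2 positive and 3 negative, with miR-145a-5p at -0.19 ± 0.32 and miR-199a-5p at 0.13 ± 0.25. Taken singly, 11.8% of the 534 miRNAs tested did not overlap in either direction, and no such share was computed for sums. The part of these markers in the miR-205-5p difference was not tested.

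The choroid plexus miRNAs, miR-204-5p, miR-204-3p and miR-211-5p, summed to 2016 to 7435 CPM in KO and 2015 to 11789 CPM in WT, with overlap. None of the 3 was called, and those with the smallest p were miR-204-3p (-0.67 ± 0.49, edgeR adjusted p = 0.59) and miR-211-5p (-0.31 ± 0.41, adjusted p = 0.77). With their mean log2 level as a covariate, miR-205-5p had a log2 fold change of -0.92 (edgeR adjusted p = 0.53). The 3 arms weigh equally in this covariate, although miR-204-3p had only 2 to 30 reads per library and miR-211-5p 7 to 29. KO replicate 3 was lowest in miR-204-5p (2006 CPM) but highest in miR-211-5p (7.33 CPM). Whether the covariate follows choroid plexus content was not tested.

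miR-215-5p had a log2 fold change of -0.37 ± 0.26 (95% interval -0.93 to 0.19, edgeR adjusted p = 0.58), at 8.51 ± 1.09 CPM in KO (SD, n = 4) and 11.9 ± 2.74 CPM in WT (SD, n = 3). Without WT replicate 2, which held its highest level, this value was -0.16. For miR-192-5p the log2 fold change was 0.00 ± 0.11 (adjusted p = 0.99), with an interval of -0.25 to 0.24 that corresponds to 0.844-fold to 1.18-fold. The intervals of miR-194-5p (0.13 ± 0.17, interval -0.24 to 0.49), miR-203-3p (0.15 ± 0.19, -0.26 to 0.56) and miR-31-5p (0.16 ± 0.18, -0.24 to 0.56) stayed within 1.48-fold in the higher direction. That of miR-31-3p (-0.35 ± 0.59, -1.64 to 0.94) ran from 0.320-fold to 1.92-fold, so its few reads left much larger changes undetected. The adjusted p-values of these last 4 arms were 0.73 to 0.80.

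**Figure D2:**
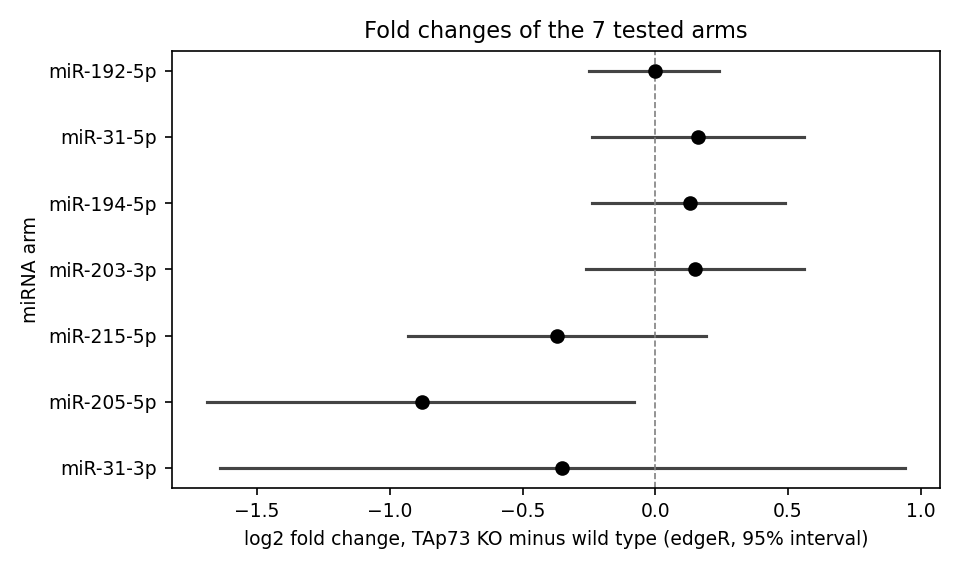
Log2 fold change of the 7 tested arms, KO minus WT, with 95% intervals from edgeR, ordered by level from the most abundant at the top; the dashed line marks no difference. The intervals widen from miR-192-5p (-0.25 to 0.24) to miR-31-3p (-1.64 to 0.94), and miR-205-5p, at -0.88, is the arm whose interval, before adjustment over the 534 miRNAs, lies below 0.

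miR-192-5p varied little between libraries. The SD of its log2 CPM over the 7 libraries was 0.074. It was the least variable of the 64 miRNAs with a mean of at least 1000 CPM, whose median SD was 0.195. With TMM scaling (edgeR's trimmed mean of M-values) the SD was 0.065 and it was again the least variable, and without KO replicate 3 it was 0.073, 2nd of 64; this measure and its alternatives were chosen after the values were seen. miR-194-5p also varied little, with an SD of 0.123, followed by miR-203-3p at 0.184 and miR-31-5p at 0.200. At lower counts the SD was 0.333 for miR-215-5p, 0.640 for miR-205-5p and 0.934 for miR-31-3p. miR-204-5p, for comparison, varied from 2006 to 7429 CPM in KO and from 2009 to 11775 CPM in WT.

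**Figure D3:**
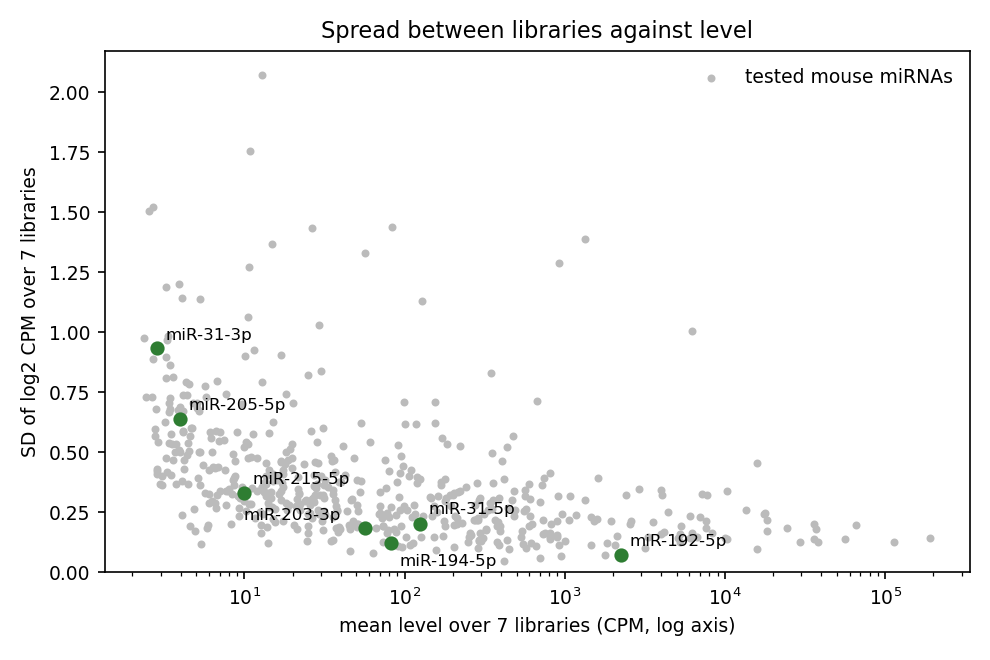
SD of log2 CPM over the 7 libraries against mean CPM (log axis) for the 534 tested mouse miRNAs (grey) with the 7 tested arms in green. miR-192-5p, with an SD of 0.074, lies at the lower edge of the abundant miRNAs, while miR-205-5p (0.640) and miR-31-3p (0.934) lie among the rare miRNAs.

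The arms of each hairpin were used unequally. The hairpins of miR-192 and miR-31 are shown because both of their arms are among the 8, with the 2 mature arms in capitals (5′ to 3′, RefSeq, GRCm38.p6).
Mir192: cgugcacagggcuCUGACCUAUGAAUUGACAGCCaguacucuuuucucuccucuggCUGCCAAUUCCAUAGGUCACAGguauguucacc
Mir31: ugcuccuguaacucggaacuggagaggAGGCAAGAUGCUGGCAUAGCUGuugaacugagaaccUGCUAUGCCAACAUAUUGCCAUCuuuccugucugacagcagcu
Over all libraries the 5p arm of miR-192 had 67505 reads and its 3p arm 13, so that the 5p arm held 99.98%. For miR-31 the 5p arm had 4031 reads and the 3p arm 74, or 98.2% for the 5p arm. miR-205 had 103 reads of its 5p arm and 3 of its 3p arm, all 3 in KO replicate 1. miR-203, whose 3p arm is the abundant one, had 1700 reads of it and 29 of its 5p arm, and miR-215 had 289 reads of its 5p arm and 1 of its 3p arm.

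miR-194-5p has the same sequence at both of its loci, so its reads cannot be divided between them, but the 3p arms differ at 4 of 22 bases (A8G, C19U, U20C and C22G, the miR-194-1-3p base first). The 2 sequences, seeds in capitals, are shown because they separate the locus beside Mir215 from that beside Mir192.
miR-194-1-3p: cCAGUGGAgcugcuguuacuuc
miR-194-2-3p: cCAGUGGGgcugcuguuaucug
The arm from the Mir192 locus, miR-194-2-3p, had 30 reads, with some in each of the 7 libraries, at 0.515 to 1.41 CPM in KO and 0.452 to 1.37 CPM in WT. That from the Mir215 locus, miR-194-1-3p, had 0 reads in all 7 libraries, which allows up to 0.325 CPM in the deepest. The 5p arms beside them were also unequal: miR-192-5p had 233.6 reads for each read of miR-215-5p.

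Ratios within a library do not depend on scaling and were compared between KO and WT with exact two-sided permutation tests over the 7 libraries (35 arrangements), where the smallest possible p is 0.029. None of the 4 ratios passed, and after adjustment over them a ratio that differed alone could reach no p below 0.11, so that the adjusted test could not have called it. There were 256.5, 212.1, 238.9 and 314.2 reads of miR-192-5p per read of miR-215-5p in KO and 212.0, 143.8 and 242.9 in WT. The means of this ratio on the log2 scale, 7.98 ± 0.24 in KO and 7.61 ± 0.39 in WT, differed by 0.38 (exact permutation p = 0.20, adjusted p = 0.63 over the 4 ratios). The log2 ratio of miR-194-5p to its cluster partner miR-192-5p was -4.71 ± 0.13 in KO and -4.85 ± 0.16 in WT, a difference of 0.14 (exact permutation p = 0.31, adjusted p = 0.63). It stayed between 0.0306 and 0.0426 reads of miR-194-5p per read of miR-192-5p in the 7 libraries. The arm ratios rested on few 3p reads and overlapped widely: for miR-31 the log2 ratio of 5p to 3p was 5.64 ± 1.12 in KO and 5.50 ± 1.18 in WT (exact permutation p = 0.83), and for miR-192 it was 11.91 ± 1.02 in KO and 12.07 ± 1.83 in WT (exact permutation p = 0.97), each with an adjusted p of 0.97.

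**Figure D4:**
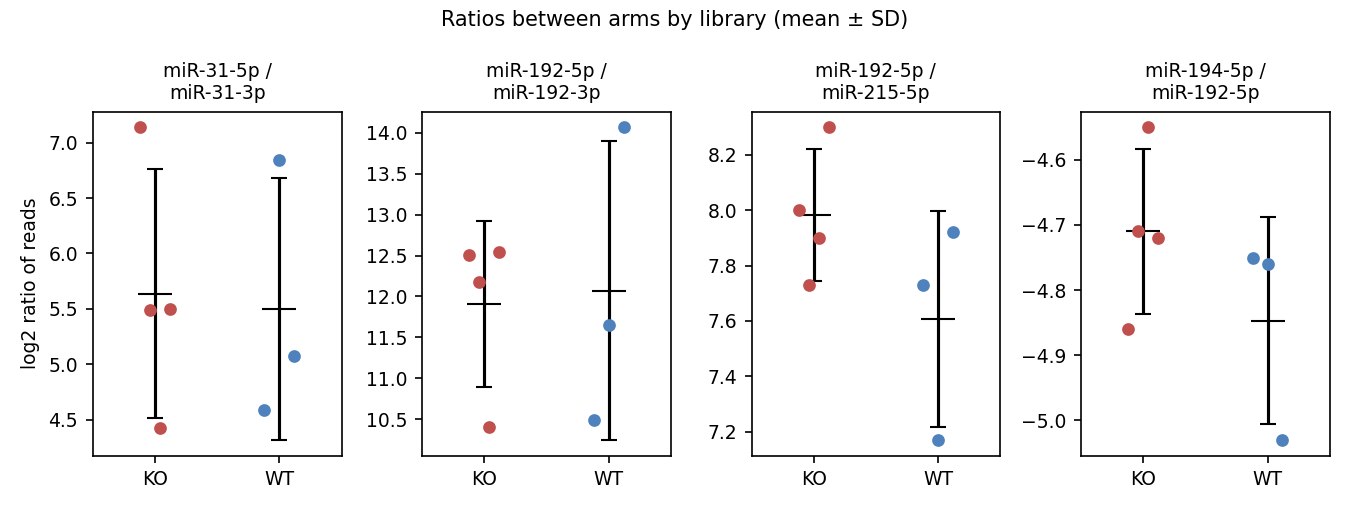
Log2 ratio of reads between arms in each KO and WT library, with group mean ± SD; 0.5 read was added to both counts, and each panel has its own axis. The KO and WT points overlap in all 4 panels, and the ratio of miR-194-5p to miR-192-5p spans the narrowest range, -5.03 to -4.55.

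The miRNAs whose levels followed each arm most closely were sought among the other 533 tested, by the SD of the log2 ratio to it over the 7 libraries. The 3 closest are low partly through being picked from 533, and counting error, larger for rare arms, was not removed. An arm that varied little is matched by miRNAs that also varied little, so a small SD need not mean shared change, which was not tested. For miR-192-5p they were miR-103-3p and miR-340-5p (0.06 each) and miR-320-3p (0.08), against a median of 0.32 over all. For miR-194-5p they were miR-9-3p, miR-148b-3p and miR-186-5p (0.06 each, median 0.34). For miR-31-5p they were miR-16-5p (0.10), miR-673-5p (0.11) and miR-30d-3p (0.12), and for miR-203-3p miR-30d-5p and miR-148b-3p (0.12 each) and miR-27b-3p (0.13). None of these was another of the 8 arms, and miR-194-5p was not among the 3 closest to its cluster partner miR-192-5p. miR-215-5p was followed most closely by miR-376a-3p and miR-344c-3p (0.18 each) and miR-337-3p (0.20), against a median of 0.45. The rarest tested arms, miR-205-5p and miR-31-3p, had no such close companions. The smallest SD was 0.36 for miR-205-5p, with miR-6988-3p (then miR-7236-3p at 0.39 and miR-344-3p at 0.41), against a median of 0.69. It was 0.44 for miR-31-3p, with miR-145a-5p (then miR-7044-3p at 0.52 and miR-154-3p at 0.54), against a median of 0.97.

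Related miRNAs outside the 8 arms also gave no calls, apart from those of multiciliated cells. Of the 17 other epithelial arms 7 were tested and 0 called, 2 positive and 5 negative, with a median log2 fold change of -0.09 against -0.02 over all miRNAs. Those with the smallest p in edgeR were miR-141-3p, of the miR-200 family that restrains the loss of epithelial character (-1.39 ± 0.44, adjusted p = 0.23), and its relative miR-429-3p (0.50 ± 0.26, adjusted p = 0.45). miR-141-3p was at 8.34 to 11.1 CPM in KO and at 14.5, 11.8 and 53.7 CPM in WT, so that WT replicate 3 stood far above the rest. miR-375-3p, at up to 424.6 CPM in KO and 284.3, 188.1 and 866.2 CPM in WT, was also highest in WT replicate 3. WT replicate 3 was the highest library for none of the 8 arms.

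Because p53 induces miR-192, miR-194 and miR-215, other miRNAs linked to p53 were set beside them. The list used held miR-34a but not the miR-34b and miR-34c arms, which were counted with the multiciliated miRNAs and are given below. Of its 8 tested arms, 0 were called, 4 positive and 4 negative, with a median of 0.04. The smallest p-values in edgeR belonged to miR-145a-3p (0.25 ± 0.19, adjusted p = 0.59) and miR-34a-5p, a direct p53 target that slows the cell cycle (0.26 ± 0.26, adjusted p = 0.71). The called miRNAs were the 6 tested arms of miR-34b, miR-34c and miR-449, miRNAs of multiciliated cells, and they went in opposite directions: the miR-34b arms and the miR-34c arms, 4 in all, were lower in KO, led by miR-34b-3p (-2.56 ± 0.29, edgeR adjusted p = 0.0014), and miR-449a-5p and miR-449c-5p were higher, with miR-449c-5p at 3.12 ± 0.41 (adjusted p = 0.0018). With 2 untested arms, the list summed to 386.4 to 760.5 CPM in KO and 1291 to 3675 CPM in WT. In the same libraries miR-192-5p stayed within 2108 to 2307 CPM in KO and 2178 to 2396 CPM in WT.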

How the data were processed

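Illumina TruSeq small RNA libraries were made from phenol/chloroform RNA, per the labels' protocols; they carry no molecular identifiers. The authors deposited 1 table of raw, unnormalized read counts per named small RNA for each library. bcl2fastq 2.17.1.14, mm10 and DESeq2 appear in the submitters' processing notes with no role. Not given in the sources used here are the aligner, counter and annotation and how reads of near-identical miRNAs such as miR-192-5p and miR-215-5p were assigned. The 5 closing rows for unassigned reads hold 0 reads. The 37 rows of other species with the names of these hairpins' arms also held 0.

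CPM used all mouse miRNA reads. Fits were run in R 4.3.3 with edgeR 4.0.16, scaled by TMM (factors 0.968 to 0.983 in KO and 1.007 to 1.072 in WT), filterByExpr (minimum count 10, minimum total 15), robust quasi-likelihood tests and calls at an adjusted p under 0.05; the code was tested on simulated counts. DESeq2 1.42.0 and limma-voom (limma 3.58.1), other scalings, filters and row sums, a choroid plexus covariate and the omission of each library were alternatives. Named are the 8 arms, the other arms of their hairpins and the 3 closest miRNAs of each. For each list the 2 tested arms with the smallest p are named, with markers given beside a result (miR-122-5p, miR-124-3p and the muscle miRNAs). miR-375-3p was added after its values were seen. The arms and lists were chosen with earlier results of these data known. Replicates are numbered in accession order. miR-203b was not analysed here.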

Additional observations from a re-analysis of the deposited data

Results flagged for a closer look

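For the 4 KO libraries, 12 values (levels and ratios) were searched for a single distant library, which chance alone finds in about 1 in 20 for normally distributed values. That rate need not hold for an arm with 1 to 3 reads per KO library, such as miR-192-3p. The search found 2, and both concern miR-192-3p in KO replicate 3, the shallowest library, and rest on 1 read. Its level there was 1.05 CPM, against 0.258 to 0.390 CPM in KO replicates 1, 2 and 4, and the distance to the nearest of them was 0.833 of the whole range. The log2 ratio of miR-192-5p to miR-192-3p there was 10.4, against 12.18 to 12.54, with a distance of 0.830 of the range. WT has 3 libraries and was not searched.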

How the results depend on the processing

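In none of the 17 alternative fits did one of the 7 tested arms pass. miR-205-5p kept its negative sign in the 16 fits that tested it, from -1.11 to -0.65 (edgeR, limma-voom and DESeq2, adjusted p 0.29 to 0.58), as did miR-215-5p, from -0.54 to -0.15. DESeq2 gave miR-205-5p no adjusted p, and the filter of 10 CPM left both of them out. miR-31-3p was below the filter in 4 fits, those with the 10 CPM filter and without KO replicate 1, 2 or 4, and has no value there. The sign of miR-192-5p, at -0.0032 in edgeR, turned to 0.0030 with DESeq2's size factors in edgeR, 0.03 with no filter, 0.0025 with the 10 CPM filter, 0.01 with the choroid plexus covariate and 0.0033 in DESeq2. Leaving out 1 library moved it between -0.05 and 0.02, miR-31-3p, in the 4 omissions that tested it, between -0.69 and 0.16, the miR-31 arm ratio between -0.36 and 0.81 and the miR-192 arm ratio between -0.95 and 0.84 (0.06 with a pseudocount of 1 read). Over all miRNAs 19 were called with no filter, 14 by DESeq2, 19 without KO replicate 3 and WT replicate 2 together, and 3 to 14 when 1 library was left out (3 without WT replicate 1, 14 without WT replicate 2). No level moved by more than its SD. The 74 reads of miR-31-3p and 13 reads of miR-192-3p limit what could be seen for these arms. No paired analysis was possible because the labels give no shared replicate numbers.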
